A study of Mus musculus with 8 samples.

Results

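Ion channel genes of the mouse aorta were followed through treatment with vitamin D (VitD in the labels) in wild-type (WT) mice and in mice labelled as lacking Tet2 in vascular smooth muscle cells (Tet2KO). The set held every gene symbol that begins with Cacna, Cacnb, Cacng, Kcn or Scn followed by a subunit name, 139 of the 48587 symbols counted. It comprised 26 genes of voltage-gated calcium channels, 94 of potassium channels and 14 of voltage-gated sodium channels. The other 5 symbols matched by name only. Kcnab3os, Kcnd3os, Kcnmb4os1 and Kcnmb4os2 are opposite-strand transcripts and Kcnq1ot1 is a long noncoding RNA, and they were left out of the channel families.

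Arterial smooth muscle contracts when calcium enters through voltage-gated calcium channels, chiefly the L-type channel whose pore is encoded by Cacna1c. Potassium channels oppose this entry by holding the membrane potential negative: voltage-gated (Kv) channels and the large-conductance calcium-activated (BK) channel open on depolarisation, inward rectifiers and Kcnk leak channels act near rest, and the ATP-sensitive channel couples the membrane to metabolism. Auxiliary subunits set how much of each pore reaches the membrane and how it gates. Voltage-gated sodium channels drive action potentials in nerve, heart and skeletal muscle and have a minor part in arterial muscle.

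RNA was sequenced from the whole aortic tree, the aorta with its branches, in 4 groups of 2 libraries: Tet2KO given VitD, Tet2KO given vehicle, WT (littermate controls) given VitD and WT given vehicle. The dose, duration, age, number of mice per library and the driver of the knockout are not stated in the labels, so p-values measure the spread between libraries, which may be technical. Libraries held 15679274 to 22332149 counts. Tet2 itself stood at 42.0 and 35.2 CPM (normalised counts scaled to a library size of 1000000) in the vehicle libraries labelled Tet2KO, against 35.8 and 32.2 CPM in WT vehicle libraries (log2 fold change 0.18, adjusted p = 1). Its level under VitD was 26.6 and 37.6 CPM in libraries labelled Tet2KO, against 18.3 and 20.04 CPM in WT (log2 0.74, adjusted p = 0.457). Counts over the whole gene, which take in all cells of the vessel and all exons, therefore did not bear out the label; the deleted part is not given. Myh11, the smooth muscle myosin heavy chain that defines contractile smooth muscle, was present in all libraries, between 1407 and 7276 CPM. Library numbers in the labels fell into a lower range (5 libraries) and a higher range (both WT VitD libraries and Tet2KO_VitD 1). In WT the range and the treatment therefore cannot be told apart.

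Of the 139 symbols, 81 had enough counts to be tested: 17 calcium, 52 potassium and 11 sodium channel genes, and Kcnq1ot1. Another 50 had some counts, at most 60 over all 8 libraries, and 8 potassium channel genes had none. Levels were compared between genes as CPM per kilobase of exon, averaged over the 8 libraries. Kcnmb1, the beta-1 subunit that gives the smooth muscle BK channel its calcium sensitivity, was highest at 51.6 CPM per kb. Kcnj8, the pore of the vascular ATP-sensitive channel, stood at 28.3 and the Kv pore gene Kcnh2 at 20.9. The Kv regulator Kcne4 stood at 13.6 and the leak channel Kcnk3 at 12.2 CPM per kb. The highest calcium channel genes were auxiliary: Cacng7 at 12.7, Cacna2d1 at 10.99 and Cacnb3 at 9.75. The L-type pore gene Cacna1c stood at 4.05 CPM per kb. The 10 highest genes made up 69.3% of the summed level, and potassium channel genes 68.3%, calcium 16% and sodium 15.8%. Exon length was the union over all isoforms, which lowers the per-kilobase level of long genes with many isoforms such as Cacna1c and Kcnma1.

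**Figure D1:**
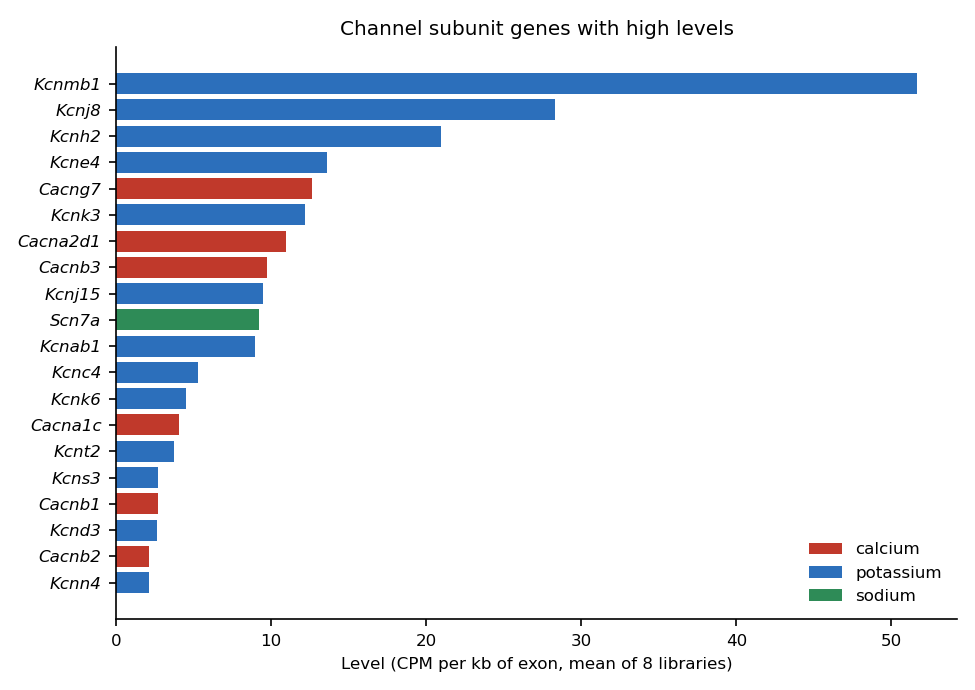
Horizontal bars give the level of 20 channel subunit genes with high levels in CPM per kilobase of exon, as the mean over 8 libraries, coloured by ion family. Kcnmb1 (51.6) leads, Kcnj8 stands at 28.3 and Kcnh2 at 20.9, and the highest calcium channel gene is Cacng7 (12.7).

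VitD against vehicle in WT addresses how channel genes respond to the treatment in control aortas. The 7 calcium channel genes that passed were all lower, while potassium channel genes passed in both directions. By edgeR's quasi-likelihood test at an adjusted p under 0.05, 7 of 17 tested calcium channel genes fell and 0 rose, with 9 lower and 0 higher at an unadjusted p under 0.05. Of 52 potassium channel genes 9 fell and 5 rose, and of 11 sodium channel genes 1 fell. In all, 22 of the 81 members passed (27.2%), beside 20.1% of all 16194 genes tested, of which 10.6% rose and 9.47% fell. An unadjusted p under 0.05 was found for 39 members (48.1%) and for 38% of all genes. The median log2 fold change was -1.20 over calcium, -0.53 over potassium and -0.49 over sodium channel genes, against -0.03 over all genes. The share of members that rose (6.17%) was below that of all genes and the share that fell (21%) above it; among calcium channel genes 41.2% fell. Low-count genes can enter the test through the group where they are high, so these counts and medians describe the tested members only, and bulk RNA cannot tell fewer cells of a type from less RNA per cell. Leaving out WT_VitD 1 gave 5 calls among members, beside 5.91% of all genes, and leaving out WT_vehicle 2 gave 6, of which 5 were among the 22, beside 3.53%. Leaving out WT_VitD 2 or WT_vehicle 1 gave 0, beside 0.828% and 1.33% of all genes. Leaving out Tet2KO_VitD 1 or Tet2KO_VitD 2 gave 37, beside 29.1% of all genes in each. Leaving out Tet2KO_vehicle 1 or Tet2KO_vehicle 2 left 16 of the 22, beside 11.7% and 11.9% of all genes, and Cacna1d, Cacnb1, Kcna2, Kcnc2 and Scn3a were among those that then did not pass (adjusted p from 0.0512 to 0.0679). All 22 kept their sign in each of these fits. When the library number range was made a covariate 0 members passed, beside 0.358% of all genes (58 genes). In that fit 21 of the 22 kept their sign and the members' median was -0.07. Only the Tet2KO_VitD group holds both ranges, so the range term rests on the difference between its 2 libraries, 1 of each range. Values from this fit, here and below, shift the WT change by that unreplicated difference.

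**Figure D2:**
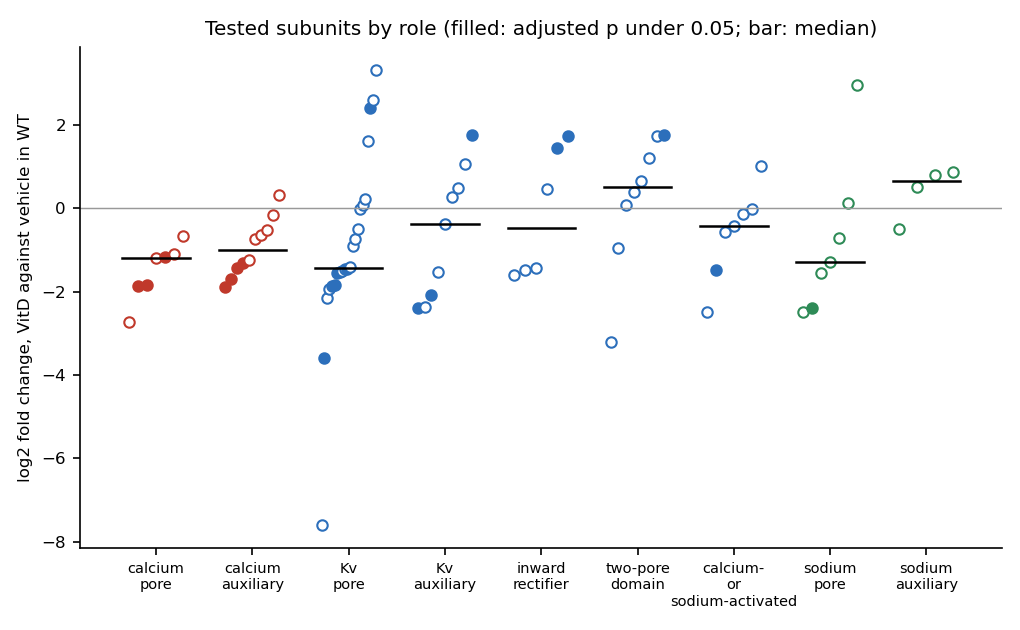
Each point is the log2 fold change (VitD over vehicle in WT) of a tested subunit, grouped by role; filled points passed an adjusted p under 0.05 and bars are medians. All 7 calcium channel pore genes lie below 0, while called inward rectifier and Kcnk genes lie above it.

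The level summed over a family was set beside these counts, with no test. Calcium channel genes together held 240.4 and 229 CPM in WT VitD libraries, against 539.8 and 453 CPM in WT vehicle libraries. Potassium channel genes held 759 and 689 CPM in WT VitD libraries, against 1073 and 1059 CPM with vehicle. Sodium channel genes held 192 and 169 CPM in WT VitD libraries, against 143 and 155 CPM with vehicle. The VitD libraries were lower for calcium and potassium and higher for sodium, with no overlap in any family. Within the sodium family the pore genes overlapped, at 83.4 and 72.4 CPM under VitD, against 96.4 and 75.0 CPM with vehicle. Its auxiliary genes held 109 and 96.9 CPM under VitD, against 46.7 and 80.1 CPM with vehicle.

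Among the calcium channel pores, Cacna1c (chromosome 6, 118587240 to 119196418, mm10), the L-type pore of arterial muscle, had 31.8 and 30.1 CPM in WT VitD libraries, against 122 and 102.8 CPM in WT vehicle libraries. It fell by 1.86 on the log2 scale, 3.64-fold (adjusted p = 0.0162, SE 0.375). Cacna1g (chromosome 11, 94408391 to 94474198), a T-type pore that opens at low voltage, had 4.70 and 6.23 CPM in VitD libraries, against 21.1 and 18.3 CPM with vehicle, and fell by 1.85 (adjusted p = 0.0106, SE 0.310). Cacna1d, another L-type pore, had 7.35 and 11.5 CPM under VitD, against 24.2 and 18.6 CPM with vehicle, and fell by 1.18 (adjusted p = 0.0364, SE 0.323). All 3 were separated from vehicle by more than the spread within either group. The other 4 tested pores, of P/Q, N, R and T type, did not pass: Cacna1a had a log2 fold change of -0.66 (adjusted p = 0.0723), Cacna1b -2.72 (0.0886), Cacna1e -1.20 (0.232) and Cacna1h -1.10 (0.241). In all 7 both VitD libraries lay below both vehicle libraries, beside 35.3% of all genes. The adjusted p of Cacna1c was 0.0717 and 0.141 without WT_VitD 1 and 2, and 0.0855 and 0.0537 without WT_vehicle 1 and 2, that of Cacna1g 0.0553, 0.0744, 0.071 and 0.0483, and that of Cacna1d 0.198, 0.129, 0.166 and 0.0738. With the library number range in the model their log2 fold changes were -0.50, -1.08 and -0.36 (adjusted p = 0.61, 0.463 and 0.821). The range term rests on the 2 Tet2KO VitD libraries alone.

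**Figure D3:**
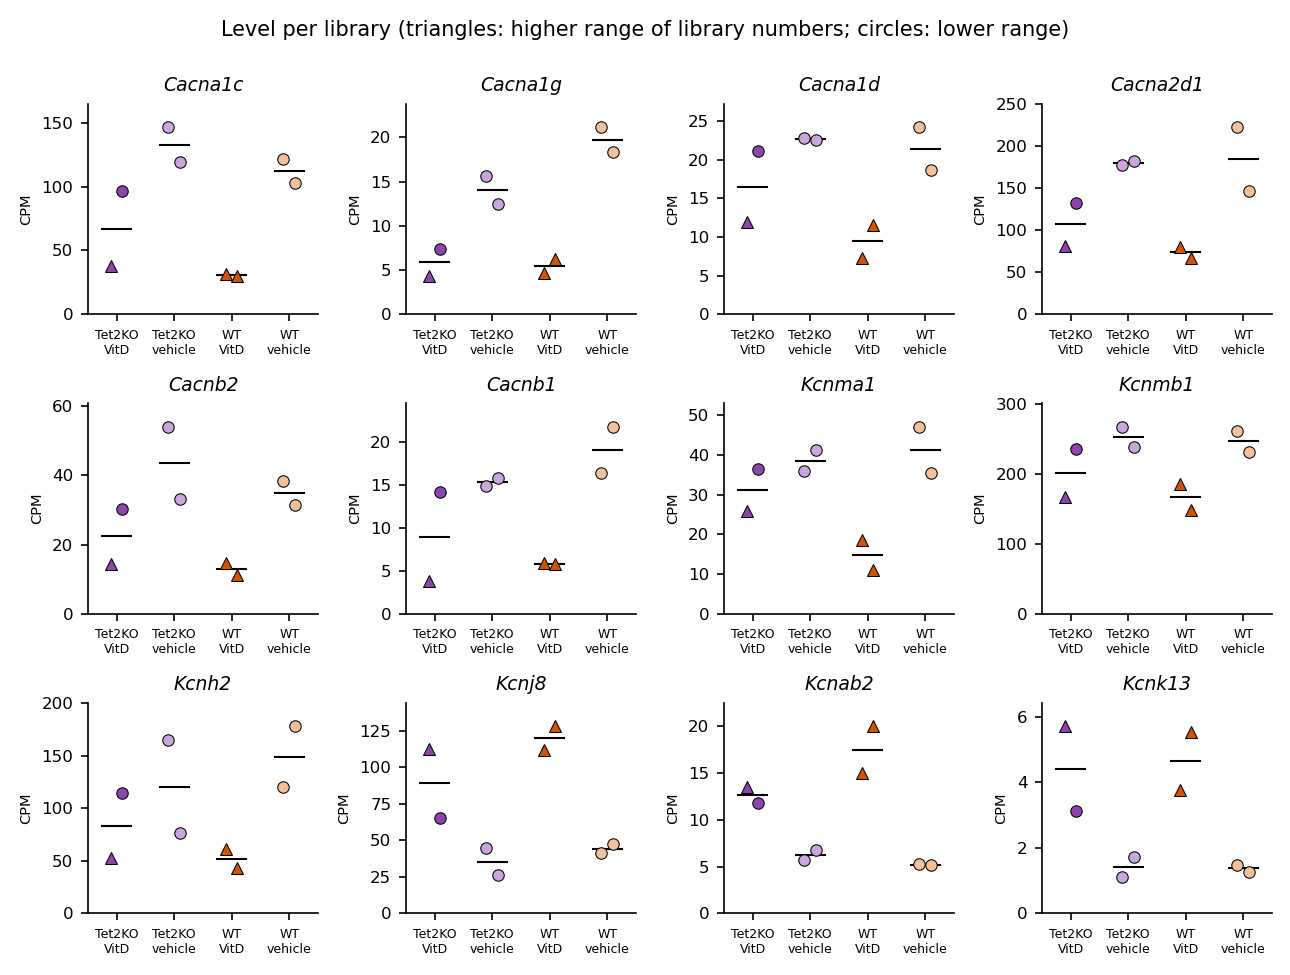
Each panel gives 1 gene's level in CPM in every library, by group; lines are group means, triangles libraries with numbers in the higher range and circles those in the lower. Cacna1c lies at 31.8 and 30.1 CPM in WT VitD libraries and at 122 and 102.8 CPM in WT vehicle libraries, while Kcnj8 lies at 112 and 128 CPM in WT VitD libraries and at 41.1 and 47.4 CPM in WT vehicle libraries.

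Auxiliary calcium channel genes moved in the same direction where they passed. Cacna2d1, the alpha2-delta subunit that carries L-type channels to the membrane, had 80.6 and 66.9 CPM in WT VitD libraries, against 222 and 147 CPM with vehicle, and fell by 1.32 on the log2 scale (adjusted p = 0.0186, SE 0.281). Cacnb2, a beta subunit that partners Cacna1c in cardiovascular muscle, had 14.8 and 11.3 CPM under VitD, against 38.5 and 31.4 CPM with vehicle, and fell by 1.42 (adjusted p = 0.0303). Cacnb1 had 5.96 and 5.77 CPM under VitD, against 16.4 and 21.8 CPM with vehicle, and fell by 1.70 (adjusted p = 0.0432). The fourth was Cacna2d3, a second alpha2-delta gene, which had 1.26 and 1.36 CPM under VitD, against 4.47 and 5.35 CPM with vehicle, and fell by 1.90 (adjusted p = 0.0195). No call was made for Cacnb3, which had 45.2 and 49.6 CPM under VitD, against 32.9 and 43.1 CPM with vehicle (log2 0.32, adjusted p = 0.29), nor for Cacng7, a gamma subunit related to regulators of glutamate receptors (log2 -0.17, adjusted p = 0.52). Of 10 tested auxiliary genes 4 fell and 0 rose, a share of 40% that fell beside 9.47% of all genes. Leaving out 1 WT library gave an adjusted p of 0.0478 to 0.165 for Cacna2d1, 0.0749 to 0.204 for Cacnb2, 0.0716 to 0.148 for Cacna2d3 and 0.114 to 0.215 for Cacnb1, highest for all 4 without WT_VitD 2, and Cacna2d1 alone kept its call, without WT_vehicle 2. Once the number range was a covariate Cacna2d1 stood at -0.62, Cacna2d3 at -1.01 and Cacnb2 at -0.36, and Cacnb1 changed sign (log2 0.20, adjusted p = 0.9). Of the exon bases of Cacnb2 7.32% overlap other genes, and the strand setting of the counting is not given.

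The BK channel is built from the pore encoded by Kcnma1 and the smooth muscle beta subunit encoded by Kcnmb1. The RefSeq promoter windows, from 250 bases before to 50 after the start (GRCm38.p6), are shown for this pair, of which the pore gene passed the test and the beta gene did not, and for a gene that fell (Cacna2d1) and a gene that rose (Kcnj8). CG dinucleotides, where most DNA methylation of mammals lies and on which TET enzymes act, are in capitals. Methylation was not measured. The Kcnma1 window, chr14:24004156-24004455 on the minus strand, holds 36 CG, and the Kcnmb1 window, chr11:33962763-33963062 on the plus strand, holds 1. That of Cacna2d1, chr5:15934441-15934740 on the plus strand, holds 42 and that of Kcnj8, chr6:142571565-142571864 on the minus strand, 9, and the median over 27025 genes is 8.
Kcnma1: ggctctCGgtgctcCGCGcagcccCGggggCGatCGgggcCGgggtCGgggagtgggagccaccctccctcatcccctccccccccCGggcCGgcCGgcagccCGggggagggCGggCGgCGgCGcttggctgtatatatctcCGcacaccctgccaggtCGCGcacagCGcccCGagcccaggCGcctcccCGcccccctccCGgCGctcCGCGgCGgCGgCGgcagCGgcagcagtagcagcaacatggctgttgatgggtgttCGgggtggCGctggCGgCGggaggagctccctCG
Kcnmb1: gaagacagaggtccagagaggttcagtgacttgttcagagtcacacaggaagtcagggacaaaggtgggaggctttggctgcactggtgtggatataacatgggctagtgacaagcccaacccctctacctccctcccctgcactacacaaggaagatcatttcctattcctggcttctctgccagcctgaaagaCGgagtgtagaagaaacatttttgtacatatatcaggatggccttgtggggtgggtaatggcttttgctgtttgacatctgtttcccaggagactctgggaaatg
Cacna2d1: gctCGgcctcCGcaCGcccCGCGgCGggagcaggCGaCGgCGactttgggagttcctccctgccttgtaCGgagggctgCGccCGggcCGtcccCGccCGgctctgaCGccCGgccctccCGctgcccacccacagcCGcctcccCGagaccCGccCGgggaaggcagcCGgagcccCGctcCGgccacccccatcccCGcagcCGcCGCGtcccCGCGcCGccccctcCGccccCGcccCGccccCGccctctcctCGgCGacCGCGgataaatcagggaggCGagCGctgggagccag
Kcnj8: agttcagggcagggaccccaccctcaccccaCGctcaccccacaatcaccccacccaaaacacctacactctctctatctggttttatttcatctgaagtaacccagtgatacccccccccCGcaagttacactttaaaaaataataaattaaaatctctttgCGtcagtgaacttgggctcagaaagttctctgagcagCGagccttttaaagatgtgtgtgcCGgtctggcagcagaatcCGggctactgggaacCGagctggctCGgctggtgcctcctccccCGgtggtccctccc

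Kcnma1 had 18.6 and 10.98 CPM in WT VitD libraries, against 47.0 and 35.4 CPM in WT vehicle libraries. It fell by 1.48 on the log2 scale (adjusted p = 0.0151, SE 0.291). Kcnmb1 had 185 and 148 CPM under VitD, against 262 and 231 CPM with vehicle. Its log2 fold change of -0.56 (adjusted p = 0.103, SE 0.225) did not pass. Both VitD libraries lay below both vehicle libraries, as they did for 35.3% of all genes. The difference between the genes' changes was not tested. Of the other 5 tested calcium- or sodium-activated genes 0 passed: the sodium-activated Kcnt2 stood at 1.01 (adjusted p = 0.0703) and Kcnn4, an intermediate-conductance channel of endothelial and immune cells, at -0.02 (0.984). Kcnma1 kept its call without WT_VitD 1 (adjusted p = 0.0218) and WT_vehicle 2 (0.0496) and not without WT_VitD 2 (0.139) or WT_vehicle 1 (0.0867). Taking the number range as a covariate left it at -0.99 (adjusted p = 0.52). Of its exon bases 5.99% overlap an opposite-strand gene.

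Of 22 tested Kv pore genes 6 fell (27.3%, beside 9.47% of all genes) and 1 rose (4.55%, beside 10.6%). The VitD libraries lay below the vehicle libraries for 14 of the 22, beside 35.3% of all genes, and above them for 5, beside 33.8%. Kcnh2, the pore of the rapid delayed rectifier known from the heart, had 61.0 and 43.0 CPM in WT VitD libraries, against 121 and 178 CPM with vehicle, and fell by 1.52 on the log2 scale (adjusted p = 0.0436). Kcnc4, a fast-inactivating pore, had 12.2 and 7.42 CPM under VitD, against 34.0 and 36.2 CPM with vehicle, and fell by 1.84 (adjusted p = 0.031). Kcnq3, a Kv7-family pore known from neurons, had 1.39 and 0.340 CPM under VitD, against 9.32 and 11.4 CPM with vehicle, and fell by 3.60 (adjusted p = 0.0281). Kcna2, a Kv1-family pore, had 2.52 and 2.32 CPM under VitD, against 6.03 and 7.29 CPM with vehicle, and fell by 1.46 (adjusted p = 0.0386). The gene that rose was Kcnc2, which had 2.25 and 1.30 CPM under VitD, against 0.311 and 0.342 CPM with vehicle, and rose by 2.41 (adjusted p = 0.0448). Without single WT libraries the adjusted p of Kcnh2, Kcnc4, Kcnq3, Kcna2 and Kcnc2 lay between 0.0593 (Kcnq3, without WT_VitD 1) and 0.25 (Kcnh2, without WT_VitD 2). With the number range in the model Kcnh2 stood at -0.42, Kcnc4 at -0.17, Kcnq3 at -0.47, Kcna2 at -0.47 and Kcnc2 at 0.92 (adjusted p from 0.792 to 0.932).

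Among Kv auxiliary genes 2 beta subunit genes passed in opposite directions. Kcnab1 (chromosome 3, 65109384 to 65378223), a cytoplasmic beta subunit of Kv1 channels, had 27.9 and 14.0 CPM in WT VitD libraries, against 156 and 64.4 CPM with vehicle. It fell by 2.40 on the log2 scale (adjusted p = 0.0151, SE 0.471). Kcnab2 (chromosome 4, 152390742 to 152477871), a second Kv1 beta subunit, had 14.96 and 19.98 CPM under VitD, against 5.22 and 5.13 CPM with vehicle. It rose by 1.76 (adjusted p = 0.00667, SE 0.254), the smallest adjusted p among the members. Kcnip4, a calcium-binding partner of Kv4 pores, had 3.91 and 1.30 CPM under VitD, against 12.1 and 9.91 CPM with vehicle, and fell by 2.09 (adjusted p = 0.0198). Kcne4, a single-pass regulator of Kv7 and other pores, had 48.8 and 38.0 CPM under VitD, against 40.0 and 32.0 CPM with vehicle (log2 0.27, adjusted p = 0.332). Of 9 tested genes 2 fell (22.2%, beside 9.47% of all genes) and 1 rose (11.1%, beside 10.6%). Kcnab1 and Kcnab2 kept their calls without WT_VitD 1 (adjusted p = 0.0303 and 0.0124) and WT_vehicle 2 (0.0403 and 0.0483), but not without WT_VitD 2 (0.139 and 0.0717) or WT_vehicle 1 (0.0846 and 0.0567), and Kcnip4 kept its call only without WT_VitD 1 (0.0113). With the number range in the model Kcnab1 stood at -1.79, Kcnab2 at 1.56 and Kcnip4 at -1.63 (adjusted p = 0.494, 0.225 and 0.521).

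Of 6 tested inward rectifier genes 2 rose and 0 fell, a share of 33.3% beside 10.6% of all genes that rose. The class as a whole was split, with 3 positive and 3 negative log2 fold changes and a median of -0.48. Kcnj8, which with the sulfonylurea receptor gene Abcc9 makes the vascular ATP-sensitive channel, had 112 and 128 CPM in WT VitD libraries, against 41.1 and 47.4 CPM with vehicle. It rose by 1.44 on the log2 scale (adjusted p = 0.0195, SE 0.311). Abcc9 itself did not pass and had 253 and 276 CPM under VitD, against 444 and 351 CPM with vehicle, a log2 fold change of -0.59 (adjusted p = 0.103). Kcnj2, the strong inward rectifier, had 3.24 and 4.87 CPM under VitD, against 1.06 and 1.37 CPM with vehicle, and rose by 1.74 (adjusted p = 0.0309). Kcnj15 had 51.0 and 72.1 CPM under VitD, against 49.7 and 39.5 CPM with vehicle (log2 0.47, adjusted p = 0.133). Kcnj11, which forms the ATP-sensitive channel of heart and beta cells, had 1.59 and 1.30 CPM under VitD, against 3.67 and 4.10 CPM with vehicle (log2 -1.43, adjusted p = 0.139). Without single WT libraries the adjusted p of Kcnj8 was 0.0521 to 0.142 and that of Kcnj2 0.0603 to 0.204, lowest without WT_VitD 1 and highest without WT_VitD 2 for both. With the number range in the model Kcnj8 stood at 0.64 and Kcnj2 at 1.43 (adjusted p = 0.652 and 0.58).

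Among the Kcnk leak channels, 1 of 8 tested rose and 0 fell, a share of 12.5% beside 10.6% of all genes that rose. Kcnk13, known in mouse from microglia, had 3.77 and 5.55 CPM in WT VitD libraries, against 1.49 and 1.25 CPM with vehicle, and rose by 1.76 on the log2 scale (adjusted p = 0.0311, SE 0.458; 0.0629 without WT_VitD 1 to 0.204 without WT_VitD 2). Kcnk6, known from macrophages, had 18.6 and 24.1 CPM under VitD, against 13.5 and 13.9 CPM with vehicle (log2 0.64, adjusted p = 0.0885). Kcnk3, the acid-sensitive leak channel of pulmonary arterial muscle, had 30.0 and 26.2 CPM under VitD, against 39.0 and 70.7 CPM with vehicle (log2 -0.97, adjusted p = 0.171).

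Of the 11 sodium channel genes 1 fell and 0 rose, a share of 9.09% beside 9.47% of all genes. Scn3a, an embryonic neuronal pore, had 0.794 and 0.170 CPM in WT VitD libraries, against 2.49 and 2.51 CPM with vehicle, and fell by 2.39 on the log2 scale (adjusted p = 0.0413; 0.0424 without WT_VitD 1 and 0.107 to 0.229 without each other WT library). With the number range in the model it stood at -1.20 (adjusted p = 0.723). Scn7a, an atypical channel that senses sodium, had 63.3 and 58.7 CPM under VitD, against 64.7 and 47.0 CPM with vehicle (log2 0.13, adjusted p = 0.654). Scn2a1, a neuronal pore, stood at -0.71 (adjusted p = 0.119).

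Of 55 genes listed as partners or regulators of these channels, 48 were tested and 7 passed in WT (14.6%, beside 20.1% of all genes). Fgf14, a fibroblast growth factor homologue that binds sodium channels, fell by 1.62 on the log2 scale (adjusted p = 0.00511). Akap12, a scaffold for protein kinase A, fell by 1.56 (0.00845), the ankyrin Ank2 by 1.09 (0.00793), the sodium leak channel Nalcn by 1.10 (0.021), and Abcc8, the sulfonylurea receptor of beta cells, by 3.57 at levels of at most 1.99 CPM in any library (0.0223). Cav3, muscle caveolin, rose by 1.26 (0.0132) and Orai2, a store-operated calcium channel, by 0.95 (0.045). Without WT_VitD 2 none of the 7 passed (adjusted p from 0.0717 to 0.263).

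Markers of several cell types moved in the same comparison, in which 10.6% of all genes rose and 9.47% fell. Of 20 contractile smooth muscle markers 6 fell and 0 rose in WT (median log2 fold change -0.52), and their summed level was 32253 and 22362 CPM in WT VitD libraries, against 42273 and 42962 CPM with vehicle. Myh11 fell by 1.84 on the log2 scale (adjusted p = 0.0246). Of 11 macrophage markers, all detected in every library, 10 rose, with a summed level of 2550.2 and 3029.7 CPM under VitD, against 728 and 696 CPM with vehicle. Of 11 tested skeletal muscle markers 10 rose, with a summed level of 128 and 545 CPM under VitD, against 36.9 and 40.2 CPM with vehicle. Endothelial markers summed to 3142 and 2716 CPM under VitD, against 1675 and 1601 CPM with vehicle, and 1 of 10 passed. Of 6 mesothelial markers 4 rose, with a summed level of 91.5 and 204 CPM under VitD, against 36.7 and 33.6 CPM with vehicle. Of 11 neuron markers 0 passed, while 7 were lower and 1 higher at an unadjusted p under 0.05 (median log2 fold change -2.80), and their summed level was 172 and 158 CPM under VitD, against 91.6 and 245 CPM with vehicle, with 2 markers at 0 in WT_VitD 2. Kcnq3 and Scn3a, both known from neurons, fell in the same comparison. The levels of these genes in the 2 WT vehicle libraries, given above, were close together. The median log2 deviation of the neuron markers was -0.10 in WT_vehicle 1 and 2.05 in WT_vehicle 2. Of 9 tested T cell and thymocyte markers 2 fell, of 9 tested Schwann cell markers 1 rose, and of 9 tested cardiac muscle and 10 adipocyte markers 0 passed. The share of counts from ribosomal protein genes was 4.37% to 4.93% in the 3 libraries with higher numbers and 1.92% to 2.35% in the other 5. The part of any of these in the channel results was not tested. Genes with long transcripts were lower in WT VitD libraries, with a Spearman correlation of exon length and log2 deviation, over 15703 genes, of -0.30 and -0.21, against 0.22 and -0.03 in WT vehicle libraries; tested members had a median exon length of 5578 bases, against 4130 over all genes. With that trend removed, 16 of the 22 members passed, beside 17.1% of all genes, and all 22 kept their sign.

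VitD against vehicle in the libraries labelled Tet2KO asks the same question without smooth muscle Tet2, as far as the label holds. By edgeR 0 of 81 members passed, beside 0.198% of all genes (32 of 16194), and DESeq2 called 2 members, beside 2.97% of all genes, and limma voom 0. At an unadjusted p under 0.05 there were 12 members (14.8%), 6 higher and 6 lower, beside 13.3% of all genes. Calcium channel genes had a median log2 fold change of -0.68 and 5 of 17 were lower at that level, while the 6 higher were all potassium channel genes. Kcnj8 had 113 and 65.0 CPM in Tet2KO VitD libraries, against 44.6 and 26.2 CPM in Tet2KO vehicle libraries (log2 1.33, adjusted p = 0.148, SE 0.312). Cacna1g had 4.35 and 7.39 CPM in Tet2KO VitD libraries, against 15.6 and 12.5 CPM with vehicle (log2 -1.25, adjusted p = 0.161, SE 0.305). Cacna1c had 37.6 and 96.6 CPM in Tet2KO VitD libraries, against 146 and 119.5 CPM with vehicle (log2 -0.98, adjusted p = 0.307, SE 0.364). The VitD libraries lay apart from the vehicle libraries in these 3 genes, beside 23.7% of all genes above and 22.2% below, but Cacna1c and Kcnj8 also differed between the 2 Tet2KO VitD libraries. Among sodium channel genes the smallest p was that of Scn3b, a beta subunit, at 10.4 and 4.31 CPM under VitD, against 3.44 and 4.24 CPM with vehicle (log2 0.93, adjusted p = 0.392). Without Tet2KO_VitD 2, the VitD library of the lower number range, 16 members passed (4 higher and 12 lower), beside 11.2% of all genes, and without Tet2KO_VitD 1 0 passed, beside 0.13%.

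**Figure D4:**
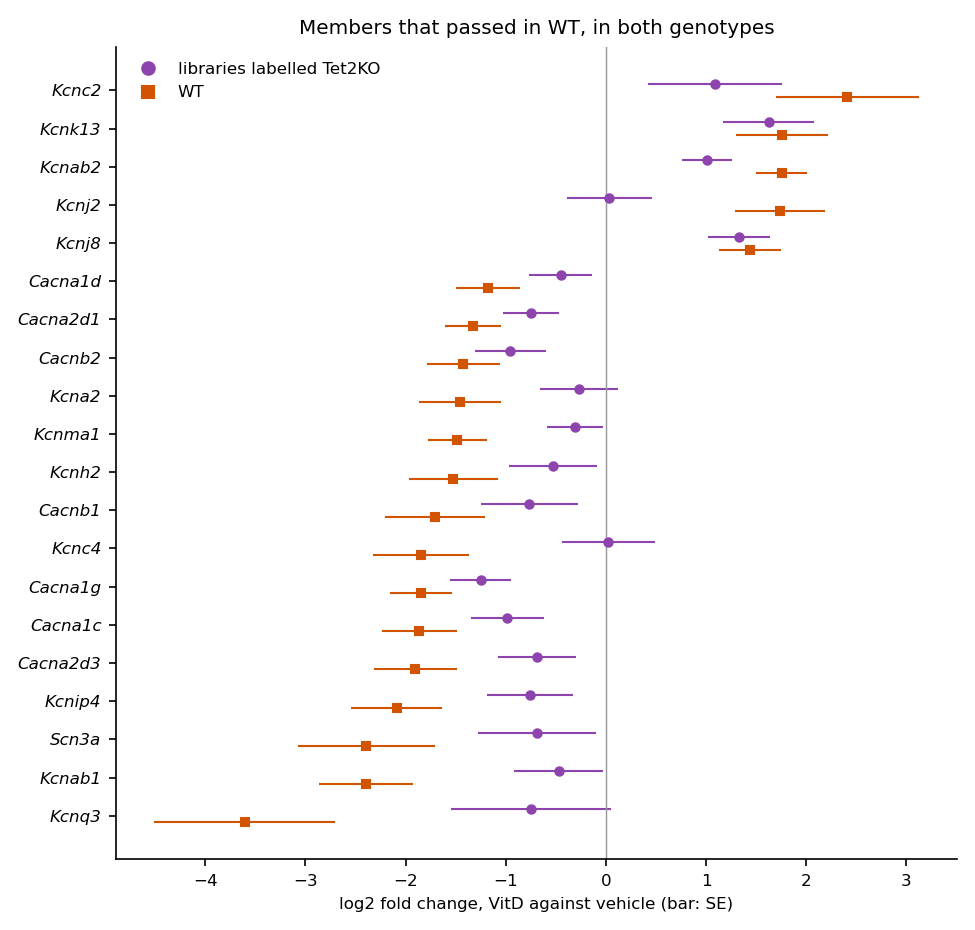
Points give the log2 fold change, VitD over vehicle, of 20 of the 22 members that passed in WT, with bars of 1 SE, in libraries labelled Tet2KO (circles) and in WT (squares). Kcnj8 stood at 1.33 in Tet2KO and 1.44 in WT, and Kcnc4 at 0.02 in Tet2KO and -1.84 in WT. The Tet2KO value of Kcnc4 averages unlike libraries. It had 7.76 CPM in Tet2KO_VitD 1 (higher number range) and 24.9 CPM in Tet2KO_VitD 2 (lower range), against 18.4 and 13.9 CPM with vehicle. No member was called for a difference in response between genotypes.

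Across both genotypes, separation of VitD from vehicle libraries was counted without a test. Of 17 calcium channel genes, 8 had all 4 VitD libraries below all 4 vehicle libraries, beside 11.6% of all genes, and 0 had all above, beside 12.6%. The 8 were Cacna1a, Cacna1c, Cacna1g, Cacna2d1, Cacna2d3, Cacna2d4, Cacnb1 and Cacnb2. Among 52 potassium channel genes 6 lay above (Kcnab2, Kcnf1, Kcnj8, Kcnk6, Kcnk10 and Kcnk13) and 3 below (Kcnip4, Kcnj11 and Kcnq5). The share above, 11.5%, was close to the 12.6% of all genes, and the share below was 5.77%, beside 11.6% of all genes. Among sodium channel genes Scn4a lay below. The single VitD library of the lower number range, Tet2KO_VitD 2, lay below all 4 vehicle libraries, which are of the same range, for 9 of 17 calcium channel genes, beside 21.1% of all genes, and above them for 2, Cacna1h and Cacnb3, beside 21.5%. For potassium channel genes it lay above for 10 and below for 7 of 52. In that library Cacna1c stood at 96.6 CPM, against 102.8 to 146 CPM in the 4 vehicle libraries, Cacna1g at 7.39 CPM, against 12.5 to 21.1 CPM, and Kcnj8 at 65.0 CPM, against 26.2 to 47.4 CPM. It is a single library, so this part of the comparison has no replicate.

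Tet2KO against WT asks whether smooth muscle Tet2 bears on channel genes, and edgeR called 0 members in either treatment. Under vehicle 0 of 81 members passed by edgeR, DESeq2 or limma voom, and edgeR called 0% of all genes. At an unadjusted p under 0.05 there were 3 members (3.7%), beside 2.97% of all genes. Kcnj2 had 4.11 and 2.23 CPM in Tet2KO vehicle libraries, against 1.06 and 1.37 CPM in WT vehicle libraries (log2 1.38, SE 0.451, adjusted p = 1). Cacna1b, the N-type pore of neurons, had 0.0614 and 0.168 CPM in Tet2KO vehicle libraries, against 0.435 and 2.05 CPM in WT (log2 -3.35, adjusted p = 1), the highest value being that of WT_vehicle 2. The smallest p of a sodium channel gene was that of Scn7a (log2 0.42, adjusted p = 1). Under VitD 0 members passed by edgeR or limma voom and 1 by DESeq2, beside 0% of all genes by edgeR and 0.619% by DESeq2. At an unadjusted p under 0.05 there were 13 members (16%), 12 of them higher in Tet2KO, beside 10.6% of all genes. Kcnab1 had 58.9 and 90.05 CPM in Tet2KO VitD libraries, against 27.9 and 14.0 CPM in WT VitD libraries (log2 1.84, adjusted p = 0.457, SE 0.463). Kcnma1 had 25.9 and 36.4 CPM in Tet2KO VitD libraries, against 18.6 and 10.98 CPM in WT (log2 1.08, adjusted p = 0.457, SE 0.289). Scn3a stood at 1.49 and 3.43 CPM in Tet2KO VitD libraries, against 0.794 and 0.170 CPM in WT (log2 2.38, adjusted p = 0.457). Cacna1c differed by 1.12 on the log2 scale (adjusted p = 0.457). This comparison shares its WT VitD libraries with VitD against vehicle in WT, where the log2 fold changes of these 4 genes were -2.40, -1.48, -2.39 and -1.86. Both WT VitD libraries are of the higher number range, as is Tet2KO_VitD 1, while Tet2KO_VitD 2 is of the lower range. The members' median log2 fold change was 0.36 with both Tet2KO VitD libraries. It was 0.52 without Tet2KO_VitD 1, where genotype and range cannot be told apart, and 0.002 without Tet2KO_VitD 2. With the number range as a covariate it was 0.03, and that term rests on the difference between the Tet2KO VitD libraries. The part of the range in these values was not tested.

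The genotype by VitD interaction, which tests whether the response to VitD differed between genotypes, gave 0 calls among members and 0% of all genes by edgeR, and 0 members by DESeq2 or limma voom. At an unadjusted p under 0.05 there were 12 members (14.8%), beside 6.21% of all genes. The smallest p belonged to Cacna1b (log2 4.90, adjusted p = 0.794, SE 1.52). The smallest p of a sodium channel gene was that of Scn9a, a pore of sensory and sympathetic neurons (adjusted p = 0.794). Cacna1b stood at 0.186 and 0.880 CPM in Tet2KO VitD and 0.199 and 0.170 CPM in WT VitD libraries; with vehicle it stood at 0.0614 and 0.168 CPM in Tet2KO and 0.435 and 2.05 CPM in WT libraries. Scn9a stood at 0.186 and 0.660 CPM in Tet2KO VitD and 0.132 and 0.113 CPM in WT VitD libraries, against 0.0614 and 0.279 CPM in Tet2KO vehicle and 0.186 and 1.25 CPM in WT vehicle libraries. In both genes the 2 high libraries were Tet2KO_VitD 2 and WT_vehicle 2. The same libraries had the highest median log2 deviation of the 11 neuron markers, 1.10 in Tet2KO_VitD 2 and 2.05 in WT_vehicle 2. It was -0.87 to -0.07 in the other 6. The summed level of these markers was 245 CPM in WT_vehicle 2 and 150.4 CPM in Tet2KO_VitD 2. That of Tet2KO_VitD 2 was below the 171.7 and 158.3 CPM of the WT VitD libraries. Uchl1, Tubb3 and Stmn2 were each lower in Tet2KO_VitD 2 than in WT_VitD 2. Dbh, the noradrenaline-making enzyme of sympathetic neurons, stood at 15.7 and 35.5 CPM in Tet2KO_VitD 2 and WT_vehicle 2, and at most at 2.67 CPM elsewhere. The part of nerve RNA in these values was not tested.

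**Figure D5:**
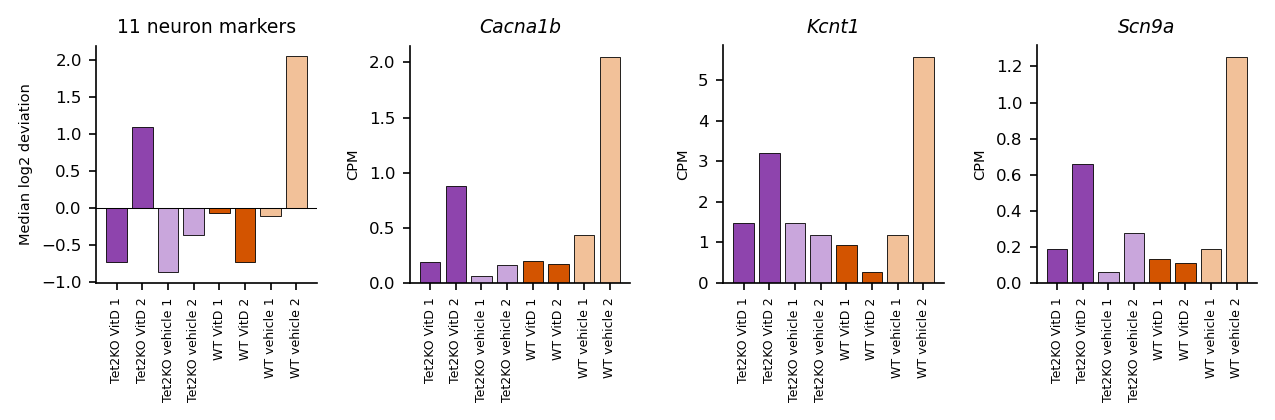
The first panel gives the median log2 deviation of 11 neuron markers from their mean over libraries, and the others the level of Cacna1b, Kcnt1 and Scn9a in CPM, as bars per library coloured by group. Tet2KO_VitD 2 and WT_vehicle 2 are highest in all 4 panels. Kcnt1, a sodium-activated potassium channel gene chosen after its values were seen, reaches 3.21 and 5.58 CPM in them. Cacna1b and Scn9a were named for the smallest interaction p of their ion families. That choice favours genes that are high in both the Tet2KO VitD and WT vehicle groups or low in both, so the likeness of the panels is partly fixed by it.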

How the data were processed

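The authors deposited raw read counts per gene symbol for 8 poly-A enriched libraries of total RNA prepared with a stranded kit. Per the submitters' processing notes, the tools were Trimmomatic 0.39, STAR 2.7.8a and featureCounts 2.0.2 and the build was mm10. Which annotation was used, whether strand was used and how multi-mapping reads were handled is not stated. Coordinates and exon lengths come from GENCODE M21 (mm10), where 95.5% of symbols matched exactly 1 gene; Scn2a1 was matched through an older symbol.

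The test was edgeR 4.0.16 (R 4.3.3): TMM normalisation, filterByExpr (16194 genes kept), a quasi-likelihood fit of all 8 libraries with 1 mean per group and 4 residual degrees of freedom, 5 contrasts, and Benjamini-Hochberg adjustment over all genes tested with a threshold of 0.05. SE is the fold change over the root of F. CPM values are counts normalised by TMM to a library of 1000000; log2 deviations use a pseudocount of 0.5 CPM. The procedure was tested on simulated data for the WT comparison. It recovered 21 of 100 genes changed by 1 on the log2 scale and 73 of 100 changed by 2, with 4 false calls. A gene that is not called may therefore still have changed. All other genes were simulated without a change, whereas 20.1% of all genes passed in the data. Each gene's spread was taken from the common trend, and no effect of the number range was simulated. The simulation therefore does not give the recovery or the false calls of the data.

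The members, roles and gene lists were chosen with earlier results of these data known. Named are members called in a comparison, the 3 highest per role by level, and the smallest p values of each comparison and ion family; others (Cacna1a, Cacna1b, Cacna1e and Cacna1h in WT, Kcnt1, Cacna2d4 and the separated genes) were chosen after their values were seen, as were Abcc9 and Dbh. Some genes that this rule names are not reported here, although they remain in the tests and counts. Alternatives were DESeq2 size factors, upper quartile scaling, DESeq2 1.42.0, limma 3.58.1 voom with quality weights, no filter, 1 CPM in 2 libraries, a replicate block, a covariate for the library number range, a fit of the groups compared alone, and leaving out each library; removal of the trend with exon length was added after seeing the data.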

Additional observations from a re-analysis of the deposited data

Results flagged for a closer look

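Cacng1, the gamma subunit of the skeletal muscle L-type channel, had too few counts to be tested, and drew attention because it was seen in 1 group only. It had 6 counts in WT_VitD 1 and 19 in WT_VitD 2, and 0 in the other 6 libraries, all 4 vehicle libraries included. Skeletal muscle markers were also highest in the WT VitD libraries, at 128 CPM in WT_VitD 1 and 545 CPM in WT_VitD 2, against 17.3 to 40.2 CPM in the others. Their part in the Cacng1 counts was not tested. Other members did not share this pattern. The calcium pore gene Cacna1s, also not tested, had 0 and 9 counts in WT_VitD 1 and 2, against 4 and 2 in WT_vehicle 1 and 2. The sodium pore gene Scn4a reached at most 1.23 CPM in a VitD library, against at least 1.37 CPM in each vehicle library.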

How the results depend on the processing

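In WT the count of 22 members was 22 with DESeq2 size factors, upper quartile scaling or 1 CPM in 2 libraries, 30 with DESeq2, 33 with limma voom, 29 with only the groups compared, 16 with the exon length trend removed, 37 with no filter and 0 with a covariate for the library number range. Leaving out 1 library gave 0 to 37. The share of all genes called in these WT fits ranged from 0.358% to 29.8%. Among named genes, Cacnb1 in WT reversed with the range covariate (log2 0.20). In Tet2KO, where 0 members passed, DESeq2 gave 2, no filter 7 and leaving out 1 library 0 to 16. For Tet2KO against WT, no filter gave 1 under vehicle; under VitD DESeq2 gave 1, no filter 12 and leaving out 1 library 0 to 7. For the interaction no filter gave 6. The causes of these differences were not tested, apart from the larger number of genes tested without a filter (28001). With a replicate block 20 members passed in WT, 19 of them shared with the fit without it, and 0 in every other comparison. Deviations of the libraries numbered 1 from their group means correlated by -0.16 to 0.16 between groups. These values gave no sign that the numbers pair the samples, but with 2 libraries per group they cannot settle it. With 2 libraries per group and 4 residual degrees of freedom, changes of low genes such as Kcnc2, Kcnq3 and Scn3a rest on few counts. A lone library left in a group by leave-one-out is assumed to vary like the others.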

Other observations

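Promoter sequence was described for the 102 members with a RefSeq window, taking the window with the most CG dinucleotides of each gene; the threshold was chosen after seeing the data and nothing was tested. At least 15 CG were held by 37.1% of all 27025 genes, 51.7% of the 58 tested members matched, 10 of the 12 matched members that fell in WT and 2 of the 5 that rose. The CG count was 7 to 63 in the members that fell and 6 to 25 in those that rose. A CArG box, the motif of serum response factor in smooth muscle genes, searched on both strands, was found in 0 of the 102 members' windows and in 1.81% of genes, and the direct repeat GGTCANNNGGTCA in 0 of 102 and in 0.0703% of genes. Both motifs are so rare in these windows that 0 among 102 members carries little information.

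Ank2, an ankyrin that anchors ion transporters and channels, was chosen after its values were seen. It stood at 38.8 and 41.2 CPM in Tet2KO vehicle libraries, against 97.5 and 114.6 CPM in WT vehicle libraries (log2 -1.41, adjusted p = 0.149, SE 0.167). Its level under VitD was 47.3 and 43.4 CPM in Tet2KO libraries, against 47.7 and 52.2 CPM in WT (log2 -0.14, adjusted p = 0.743). The 2 WT vehicle libraries were thus apart from the other 6.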
